A study of Mus musculus with 8 samples.

Results

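The TRAF family, the TNF receptor-associated factors, was examined in B cells sorted from the marrow of ovariectomized and sham-operated mice. Its 7 genes, Traf1 to Traf7, were found by Ensembl identifier among the 54532 genes of the deposited count table, and all 7 had enough reads to be tested, as 15305 genes had. The family was selected on the measured expression of Traf6, which separated the groups with little spread, so the values of Traf6 are a description and carry no test. Bilateral ovariectomy (OVX) removes the ovaries and serves as a surgical model of menopause, and Sham mice had the operation without it. RNA came from 3 OVX and 3 Sham samples, and the B cells were sorted with magnetic beads. The labels of these libraries give no allele, strain, age or time after surgery, and whether a library is 1 mouse or a pool is not stated. The p-values therefore measure the spread between these samples, which may be technical.

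TRAF proteins are cytoplasmic adaptors that carry signals from receptors without enzyme activity of their own to kinases and to NF-κB. Most hold a RING domain, through which they act in ubiquitin transfer, and a C-terminal TRAF domain, which binds the receptor tail. TRAF1 lacks the RING, and TRAF7 carries WD40 repeats in place of the TRAF domain. In B cells they serve CD40, the BAFF receptor and Toll-like receptors, and TRAF6 is also the adaptor that osteoclast precursors need to respond to RANKL.

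The genes lie apart from one another in the mouse genome (RefSeq, GRCm38.p6, the assembly behind the build mm10 in the labels). Traf6 (ENSMUSG00000027164) spans chr2:101678420-101701668, Traf2 (ENSMUSG00000026942) chr2:25517982-25546940 and Traf1 (ENSMUSG00000026875) chr2:34941750-34961812. Traf3 (ENSMUSG00000021277) spans chr12:111166321-111267155, Traf4 (ENSMUSG00000017386) chr11:78158423-78165579, Traf5 (ENSMUSG00000026637) chr1:191997203-192092599 and Traf7 (ENSMUSG00000052752) chr17:24508850-24527938. Other annotated genes overlap the spans of Traf1, Traf2, Traf3, Traf5 and Traf7, among them a long noncoding RNA gene each in Traf1 and Traf3. The only protein-coding one is Caskin1, which shares 60 bases with Traf7. How the authors' counting treated reads in such stretches is not given in the sources used here. No gene overlapped Traf4 or Traf6.

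For each member 250 bases before the start site were read from a RefSeq table of promoters. The start site in that table lies at the edge of the gene span given above for Traf2, Traf5, Traf6 and Traf7, while 40, 49 and 29 bases of the windows of Traf1, Traf3 and Traf4 fall inside the span. Shown are the bases upstream of the span, 5′ to 3′ on the strand of the gene, for Traf6, the member whose groups did not overlap, and Traf1, the member with the widest spread. They are 250 bases of the plus strand at chr2:101678170-101678419 for Traf6 and 210 bases of the minus strand at chr2:34961813-34962022 for Traf1. Capitals mark the hypoxia response element core, ACGTG or GCGTG on either strand, which was searched because the study concerns HIF-1α.
Traf6: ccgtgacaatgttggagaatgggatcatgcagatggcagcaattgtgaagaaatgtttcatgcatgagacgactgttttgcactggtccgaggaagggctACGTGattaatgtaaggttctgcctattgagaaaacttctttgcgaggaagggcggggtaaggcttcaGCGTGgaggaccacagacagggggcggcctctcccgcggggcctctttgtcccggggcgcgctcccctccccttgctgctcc
Traf1: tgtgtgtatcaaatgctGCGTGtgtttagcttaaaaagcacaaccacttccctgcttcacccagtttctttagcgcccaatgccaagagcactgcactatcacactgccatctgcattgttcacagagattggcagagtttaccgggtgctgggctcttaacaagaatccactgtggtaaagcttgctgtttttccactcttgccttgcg
Traf6 held one of each core, ACGTG at position -150 and GCGTG at position -82, counted from the start site of the table. Traf1 held GCGTG at position -233. At least 1 core stood in the windows of 4 of the 7 members, the others being Traf2 and Traf5, and in 38.6% of 32851 windows of this length. The NF-κB consensus, searched on both strands, occurred in the window of Traf3, in the part inside the gene span, and in 3.9% of all windows. These matches describe letters in a window, and no binding was analysed here.

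Between 23838775 and 33136701 reads were counted per library. The 12 general B cell markers, Cd79a and Pax5 among them, were detected in every library and held from 1.18% to 1.33% of the reads. The libraries differed more in markers of B cell stages and of other cells. The 10 pro-B and pre-B markers, such as Rag1 and Dntt, held 0.226% to 0.30% of reads in OVX and 0.155% to 0.284% in Sham, and the 10 mature B markers, such as Ighd and Fcer2a, 0.241% to 0.256% in OVX and 0.222% to 0.413% in Sham. The 18 neutrophil markers held 0.117% to 0.435% in OVX and 0.268% to 1.03% in Sham, with the highest share in Sham replicate 3, and every one of them had reads in every library. The 16 monocyte and macrophage markers held 0.0875% to 0.234% in OVX and 0.156% to 0.311% in Sham, and the 8 plasma cell markers 0.0672% to 0.0839% and 0.0761% to 0.121%. The 10 erythroid markers held at most 0.0495% and the 10 T and NK cell markers at most 0.00485%. In such bulk samples fewer cells of a type and less RNA per cell cannot be told apart.

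Traf6 encodes the ubiquitin ligase that joins CD40, RANK and the MyD88 path to the TAK1 kinase. Its level in Sham replicates 1, 2 and 3 was 130.2, 115 and 124 CPM, the read count relative to the total reads of the library after scaling with edgeR's TMM factors. In OVX replicates 1, 2 and 3 it was 144, 155 and 149 CPM. The 3 OVX libraries were all higher than the 3 Sham libraries, and the lowest OVX and the highest Sham library were 13.3 CPM apart. The mean ± SD over 3 libraries was 149 ± 5.49 CPM in OVX and 123 ± 7.65 CPM in Sham. This was a 1.21-fold difference with a log2 fold change of 0.28. The groups did not overlap in this direction in 4.33% of all genes tested, and in either direction in 8.44%, and since Traf6 was chosen for this pattern nothing is read from its place among them. From 3082 to 4919 reads of Traf6 were counted per library. Of the 7 members 4 had a log2 fold change above 0 and 3 below, where 51.8% of all genes tested were below 0, and the median of the members, which is the value of Traf5, was 0.011.

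**Figure D1:**
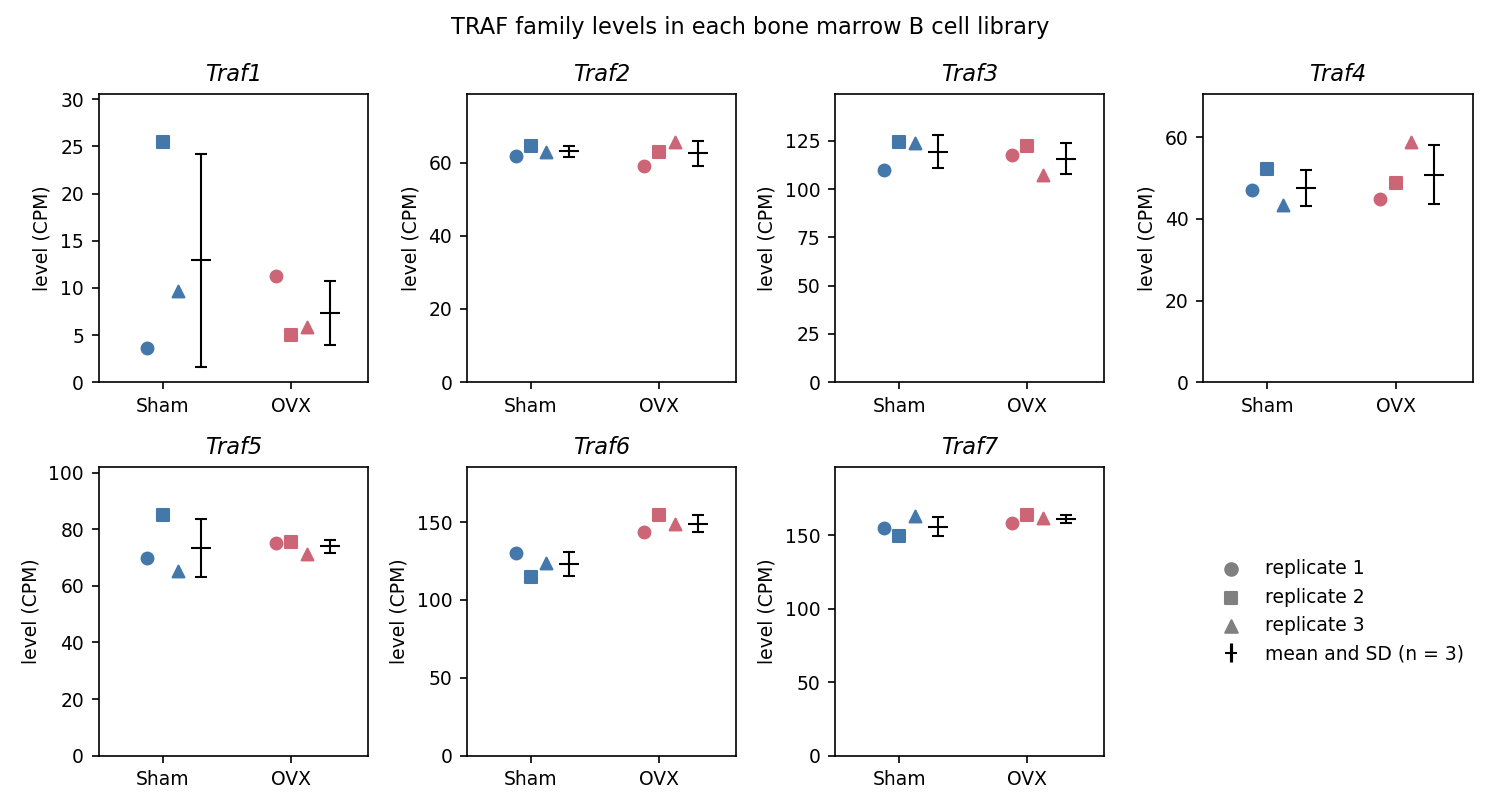
Level of each TRAF gene in CPM (y axis, from 0) in the 3 Sham (blue) and 3 OVX (red) libraries, with the replicate given by the symbol and the group mean and SD as a black bar (n = 3). The Traf6 points run from 115 to 130.2 in Sham and from 144 to 155 in OVX, the Traf1 points from 3.59 to 25.5 in Sham, and the groups overlap in every panel but that of Traf6.

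Levels of Traf6 are given beside the markers of early B cells, whose part in them was not tested. In Sham, replicate 1 was highest and replicate 2 lowest both for Traf6 and for the pro-B and pre-B share, which was 0.284% and 0.155% of the reads in these libraries. In OVX, replicate 1 was lowest for both, with a share of 0.226%, while replicate 3 had the highest share, 0.30%, and replicate 2, with 0.285%, the highest Traf6 level. This share was added to the fit as an alternative after seeing the data. The log2 fold change of Traf6 was then 0.20, against 0.28 without it. It was 0.24 with the mature B share and 0.26 with the neutrophil share as covariate.

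**Figure D2:**
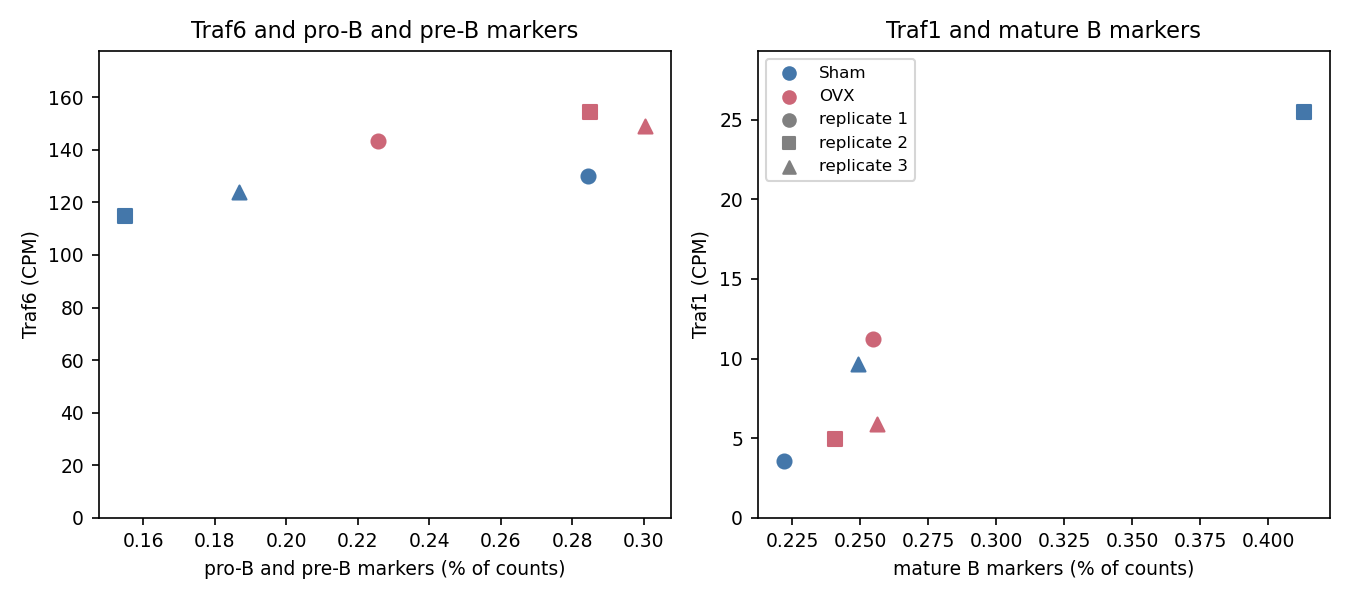
Left, Traf6 level in CPM against the share of reads on 10 pro-B and pre-B markers in percent, and right, Traf1 level in CPM against the share on 10 mature B markers, with 1 point per library (Sham blue, OVX red, symbols by replicate). Sham replicate 2 has the lowest Traf6 level at the lowest early B cell share (0.155%) and the highest Traf1 level at the highest mature B share (0.413%).

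A ratio of reads between 2 members of 1 library does not depend on how libraries are scaled. Traf6 had 31.6 ± 0.756 reads per 100 reads of the other 6 members together in OVX and 26.2 ± 3.10 in Sham (mean ± SD, 3 libraries each). Sham replicates 1, 2 and 3 had 29.1, 22.9 and 26.5 such reads, and OVX replicates 1, 2 and 3 had 30.8, 32.3 and 31.7. The OVX libraries lay above the Sham libraries in this ratio, and likewise when Traf2, Traf3, Traf5 or Traf7 alone was the reference. The ratio was 238 ± 10.3 in OVX and 195 ± 16.6 in Sham per 100 reads of Traf2, and 92.4 ± 1.79 and 78.9 ± 4.27 per 100 reads of Traf7. The groups overlapped when Traf4 was the reference, with 253 in OVX replicate 3 and 286 in Sham replicate 3, and when Traf1 was. Since these ratios all hold Traf6, they are no separate evidence. Summed over all 7 members, unscaled CPM was 616 ± 4.69 in OVX and 599 ± 28.4 in Sham, and the groups overlapped.

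**Figure D3:**
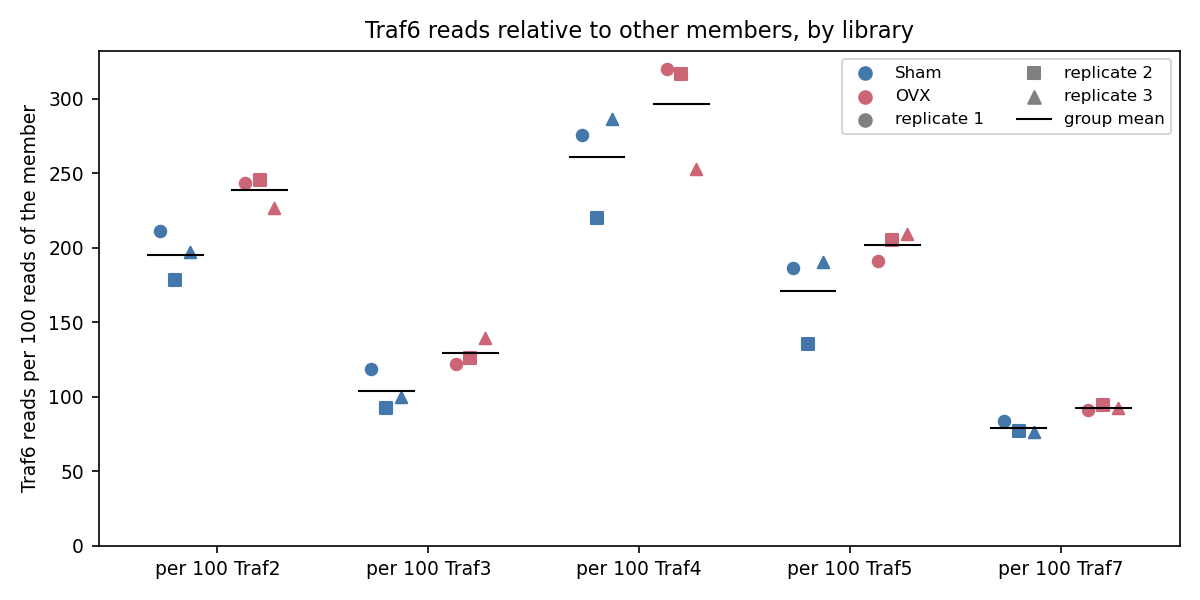
Traf6 reads per 100 reads of Traf2, Traf3, Traf4, Traf5 or Traf7 (y axis, from 0) in each library, Sham in blue and OVX in red, with symbols by replicate and a line at each group mean. The red points lie above the blue ones for every reference but Traf4, where OVX replicate 3 is at 253.

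Traf2, Traf3 and Traf5 are among the members that bind CD40 and the BAFF or TNF receptors, and TRAF2 and TRAF3 together hold the kinase NIK at a low level. No difference was detected for them. Across the 15305 genes 0% were called, with 0 at an adjusted p under 0.05 in edgeR or limma-voom. An unadjusted p under 0.05 was found for 574 genes (3.75%) in edgeR and 594 in limma-voom. DESeq2 was run on every gene with any read, a larger set. It also called 0, with 755 at an unadjusted p under 0.05. Traf2 had 61.7, 64.6 and 63.0 CPM in Sham replicates 1, 2 and 3 and 59.0, 63.0 and 65.7 CPM in OVX replicates 1, 2 and 3. The Sham values lay inside the range of the OVX values. Its log2 fold change was -0.012 (95% interval -0.17 to 0.15, adjusted p = 0.969 in the edgeR quasi-likelihood fit). Its spread within groups was at percentile 7.16 of all genes tested, counted from the steadiest.

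Traf3 restrains B cell survival as part of the same complex. It had 109.7, 125 and 124 CPM in Sham and 118, 122 and 107 CPM in OVX replicates 1, 2 and 3. OVX replicate 3 was the lowest library and Sham replicate 1 the next. The log2 fold change was -0.044 (95% interval -0.24 to 0.15, adjusted p = 0.893, edgeR). Traf5, the close relative of Traf2 in CD40 and CD27 signalling, had 69.9, 85.0 and 65.1 CPM in Sham and 75.1, 75.4 and 71.2 CPM in OVX. All OVX libraries lay between the extremes of Sham, and the means were 73.9 ± 2.33 and 73.3 ± 10.4 CPM (mean ± SD of 3). Its log2 fold change of 0.011 (95% interval -0.23 to 0.26, adjusted p = 0.981, edgeR) turned negative under other scalings, such as -0.011 by library size.

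Traf1 is itself a target of NF-κB and is induced in activated lymphocytes. It was the most variable member, with 3.59, 25.5 and 9.66 CPM in Sham replicates 1, 2 and 3 and 11.2, 4.98 and 5.87 CPM in OVX replicates 1, 2 and 3. Both the highest and the lowest library were Sham libraries, with 724 reads in replicate 2 and 85 reads in replicate 1. The mean was 7.36 ± 3.39 CPM in OVX and 12.9 ± 11.3 CPM in Sham (SD of 3 libraries), and the log2 fold change was -0.82 (95% interval -2.36 to 0.72, adjusted p = 0.811, edgeR). Its spread within groups was at the 98.2 percentile of all genes tested. Without Sham replicate 2 the log2 fold change was 0.15, and without Sham replicate 1 it was -1.27. Sham replicate 2 also had the highest share of mature B markers, 0.413% of reads against at most 0.256% elsewhere. With that share in the fit, an alternative also added after seeing the data, the log2 fold change was 0.066. It was 0.67 with the pro-B and pre-B share, likewise added after seeing the data. The part of B cell stages in this was not tested.

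Traf4 and Traf7 are the members least tied to TNF receptors. Traf4 had 47.2, 52.2 and 43.3 CPM in Sham and 44.8, 48.8 and 58.9 CPM in OVX replicates 1, 2 and 3. OVX replicate 3 was the highest library, and the other 2 OVX libraries lay within the range of Sham. Its value was 0.097 on the log2 scale (95% interval -0.19 to 0.38, adjusted p = 0.853, edgeR), and -0.022 without OVX replicate 3. Traf7, which works with the kinase MEKK3, had 155, 149.6 and 163 CPM in Sham and 158, 164 and 162 CPM in OVX. It was the steadiest member, with a highest library 1.09 times the lowest and a spread within groups at percentile 3.49 of all genes tested. Its log2 fold change was 0.048 (95% interval -0.096 to 0.19, adjusted p = 0.854, edgeR), and -0.027 with scaling on the B cell markers. Levels are not compared between members, since no transcript length was used and reads per gene rise with length.

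The other genes of the pathway were counted in 11 lists by role, which together hold 133 genes. Of these, 125 had enough reads to be tested, 57 with a log2 fold change above 0 and 68 below, with a median of -0.015 against -0.0081 over all genes tested. None was called higher or lower in edgeR, DESeq2 or limma-voom, and 7 of the 125 had an unadjusted p under 0.05 in edgeR. Of all genes tested, 3.75% had one. The OVX and Sham libraries did not overlap for 14 of the 125 (11.2%), against 8.44% of all genes. With scaling on the general B cell markers this number was 11, against 7.78% of all genes. By library size it was 13, and with upper-quartile factors or DESeq2 size factors 14. Of the 14, 9 lay above Sham (background 4.33%) and 5 below (background 4.12%). The lists were chosen with earlier results of these data known, so these shares are no independent comparison. The 5 below include Tnfrsf17 and Ccl4, which had enough reads to be tested only through the Sham libraries. Both genes are also among the 7 with an unadjusted p under 0.05 in edgeR. Scaling on the general B cell markers moved the median of all genes to -0.082 and took 4 list medians from above to below 0, those of the TAK1 complex (-0.023), the NF-κB subunits (-0.045), the inhibitors (-0.042) and the MATH genes (-0.045). Leaving out 1 library at a time changed the sign for 46 of the 125 genes and put the median of all of them between -0.059, without Sham replicate 1, and 0.026, without Sham replicate 2. The directions of these lists and of single genes in them are therefore values of these libraries only.

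Receptors of the TNF family that bind TRAFs gave 16 tested genes of 20, 5 above 0 and 11 below, and their median was -0.17 on the log2 scale. Over the same genes it ran from -0.26 without Sham replicate 1 to -0.073 without Sham replicate 2. Cd40, the receptor for T cell help, had 66.8, 73.8 and 68.8 CPM in Sham and 56.7, 67.9 and 66.4 CPM in OVX. Its log2 fold change was -0.13 (standard error, SE, 0.088, adjusted p = 0.811, edgeR). For Tnfrsf13c, the BAFF receptor, it was 0.13 (SE 0.12). These receptors overlapped between groups. Tnfrsf11a, the receptor RANK, had 6 to 156 reads per library, and its log2 fold change was -0.87 (SE 0.91), or 0.052 without Sham replicate 2. Tnfrsf17, the plasma cell receptor BCMA, was the 1 receptor of the 16 tested whose groups did not overlap (6.25%, against 8.44% of all genes tested). It had 10, 32 and 15 reads in Sham and 8, 11 and 5 reads in OVX, with 0.42, 1.13 and 0.60 CPM in Sham and 0.33, 0.39 and 0.15 CPM in OVX. Its log2 fold change was -1.33 (SE 0.54, adjusted p = 0.811, edgeR), and -0.84 without Sham replicate 2. Only through the Sham libraries did it have enough reads to be tested, so its lower OVX values are in part set by that filter. The plasma cell markers, of which it is one, were highest in Sham replicate 2, and their part in this was not tested.

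Upstream of TRAF6, the IL-1 receptor and MyD88 list had 18 tested genes, 7 above 0 and 11 below, with a median of -0.10, which ran from -0.19 without Sham replicate 1 to 0.011 without Sham replicate 2. The log2 fold change was 0.11 for the adaptor Myd88 (SE 0.089), 0.11 for the kinase Irak4 (SE 0.090) and -0.11 for Irak1 (SE 0.11), which was at 0.0031 without Sham replicate 2. None of these 3 separated the groups. Peli1, a ubiquitin ligase acting in Toll-like receptor signalling, had 101.1, 98.7 and 96.0 CPM in Sham and 108, 121 and 112 CPM in OVX. All OVX libraries lay above Sham, by 0.20 on the log2 scale (SE 0.068, adjusted p = 0.811, edgeR). Its relative Peli2 had 2.32, 2.40 and 6.40 CPM in Sham and 1.75, 0.92 and 1.30 CPM in OVX, and lay below Sham in every OVX library (SE 0.48, adjusted p = 0.811, edgeR). Peli2 was highest in Sham replicate 3, the library with the most neutrophil reads. Its log2 fold change of -1.49 was -0.68 with the neutrophil share as covariate and -0.84 without that library. The part of neutrophils in this was not tested.

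The complex that TRAF6 drives, of ubiquitin enzymes and the kinase TAK1, had 13 tested genes, 7 above 0 and 6 below, with a median of 0.051, or 0.067 without Sham replicate 1 and 0 without OVX replicate 2. Map3k7, which encodes TAK1, had 107, 104 and 107 CPM in Sham and 111, 110.4 and 109 CPM in OVX. Its groups did not overlap, and their difference of 0.051 on the log2 scale (SE 0.055, adjusted p = 0.831, edgeR) was the smallest of the 14 such genes. The TAK1 binding protein gene Tab2 was at 0.12 (SE 0.083), Tab1 at -0.12 (SE 0.11) and Ube2n, the ubiquitin-conjugating partner of TRAF6, at 0.11 (SE 0.10). These 3 overlapped between groups.

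The partners of TRAF2 and TRAF3 had 15 tested genes, 6 above 0 and 9 below, with a median of -0.033, between -0.073 without Sham replicate 1 and 0.0098 without Sham replicate 2. Birc2 and Birc3, the ubiquitin ligases of that complex, had log2 fold changes of -0.047 (SE 0.069) and -0.12 (SE 0.13). Map3k14, which encodes their substrate NIK, was at -0.0063 (SE 0.12). Without Sham replicate 2 all 3 were above 0, at 0.0017, 0.024 and 0.13. Tbk1, a kinase of the interferon response, had 91.2, 92.7 and 93.3 CPM in Sham and 99.4, 100.7 and 97.1 CPM in OVX. It was the only gene of this list whose groups did not overlap, with OVX above Sham by 0.10 (SE 0.055, adjusted p = 0.811, edgeR). That was 6.67% of the list, against 8.44% of all genes tested.

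The 8 genes of the IKK kinases and NF-κB subunits were all tested and overlapped between groups, with log2 fold changes between -0.20 and 0.10 (median 0.031). Nfkb1 was at 0.051 (SE 0.064) and Nfkb2, the subunit processed through NIK, at -0.019 (SE 0.12), or 0.10 without Sham replicate 2. The median of the list was -0.015 without Sham replicate 3 and 0.080 without Sham replicate 2. Of the 17 inhibitors and deubiquitinases, 9 were above 0 and 8 below, with a median of 0.031, or -0.0048 without Sham replicate 3 and 0.058 without Sham replicate 1. Nfkbia, which encodes the inhibitor IκBα, had 243, 204 and 220.03 CPM in Sham and 237, 279 and 264 CPM in OVX. Only OVX replicate 1 lay within the range of Sham, and the log2 fold change was 0.23 (SE 0.093, adjusted p = 0.811, edgeR). Tnfaip3, which encodes a ubiquitin-editing enzyme, was at 0.17 (SE 0.099), and Cyld, a deubiquitinase, at -0.035 (SE 0.077), or 0.0080 without Sham replicate 2. Spata2, which links CYLD to the TNF receptor complex, had 66.0, 53.8 and 59.5 CPM in Sham and 66.3, 68.4 and 73.8 CPM in OVX, and its groups, apart by 0.22 on the log2 scale (SE 0.092, adjusted p = 0.811, edgeR), did not overlap. The ubiquitin ligase gene Itch did not overlap either, at 0.079 (SE 0.058, adjusted p = 0.811, edgeR). Its groups nearly touched, with 154.8 CPM in Sham replicate 1 and 154.9 CPM in OVX replicate 1.

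The JNK and p38 list had 12 tested genes, 9 above 0 and 3 below, with a median of 0.080, which was 0.0063 with scaling on the B cell markers. Map3k1, Map2k7 and Mapk8, kinases of the JNK cascade, lay above Sham in every OVX library. These were 3 of the 12 genes (25%), where 4.33% of all genes tested lay above Sham. None was called, and the list was chosen with earlier results known. Map2k4, Mapk9 and Jun of the same cascade overlapped between groups. Map3k1 had 330.1, 314 and 349 CPM in Sham and 352, 373 and 366 CPM in OVX, or 0.14 on the log2 scale (SE 0.070, adjusted p = 0.811, edgeR). Mapk8, which encodes a JNK, was at 0.14 (SE 0.073) and Map2k7 at 0.10 (SE 0.060). Map3k3, the partner of TRAF7, was at 0.076 (SE 0.069) and overlapped.

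Among 17 tested NF-κB target genes, 8 were above 0 and 9 below, with a median of -0.019, which ran from -0.14 without Sham replicate 1 to 0.024 without Sham replicate 2. The cytokine gene Tnf had 2.36, 6.90 and 7.64 CPM in Sham and 2.16, 2.33 and 2.24 CPM in OVX. Every OVX library lay below Sham, by little below Sham replicate 1, and the log2 fold change was -1.33 (SE 0.42, adjusted p = 0.811, edgeR), or -0.92 with the neutrophil share as covariate. The chemokine gene Ccl4 had 16, 25 and 30 reads in Sham and 8, 5 and 5 reads in OVX. It was at -2.09 (SE 0.45, adjusted p = 0.811, edgeR), or -1.68 with that covariate. The part of neutrophils in Tnf and Ccl4 was not tested, nor was that of other cells such as monocytes, macrophages, T cells and NK cells. Ccl4 and Tnfrsf17 had enough reads to be tested only through the Sham libraries, where they were high, so their lower OVX values are in part set by the filter on low counts. Gadd45b, a stress response gene, had 34.4, 31.2 and 34.1 CPM in Sham and 29.1, 29.5 and 30.03 CPM in OVX, also without overlap. Reads of Bcl2a1b and Ube2v1 may be shared with near-identical or read-through copies, so their values are uncertain.

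Outside the family the TRAF-type MATH domain occurs in 6 listed genes, of which 4 were tested with a median of 0.028, or -0.018 without Sham replicate 2 and 0.070 without Sham replicate 1. The deubiquitinase Usp7 had 356, 344 and 352 CPM in Sham and 356.4, 375 and 380.4 CPM in OVX, with OVX above Sham by less than 1 CPM at the nearest libraries. Mep1a and Mep1b had too few reads to be tested. In the RANK ligand list the 4 tested genes were all below 0, with a median of -0.53, none was called and all overlapped. Of these, 2 changed sign when 1 library was left out, and the median ran from -0.95 without OVX replicate 3 to -0.083 without Sham replicate 2. Tnfsf11, which encodes RANKL and is named here although outside the rule for named genes, had 10, 44 and 9 reads in Sham and 9, 3 and 19 reads in OVX. Sham replicate 2 was its highest library, and its log2 fold change was -1.15 (SE 0.76, adjusted p = 0.811, edgeR), or -0.15 once that library was left out. Tnfrsf11b, the decoy receptor OPG, had too few reads to be tested. A list of genes that accompany Traf1 in activated mature B cells had 1 of 8 genes above 0, Irf4, and a median of -0.29. That median ran from -0.48 without OVX replicate 3 to -0.11 without Sham replicate 2, was -0.021 with the pro-B and pre-B share in the fit, and 2 of the 8 genes changed sign when 1 library was left out.

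**Figure D4:**
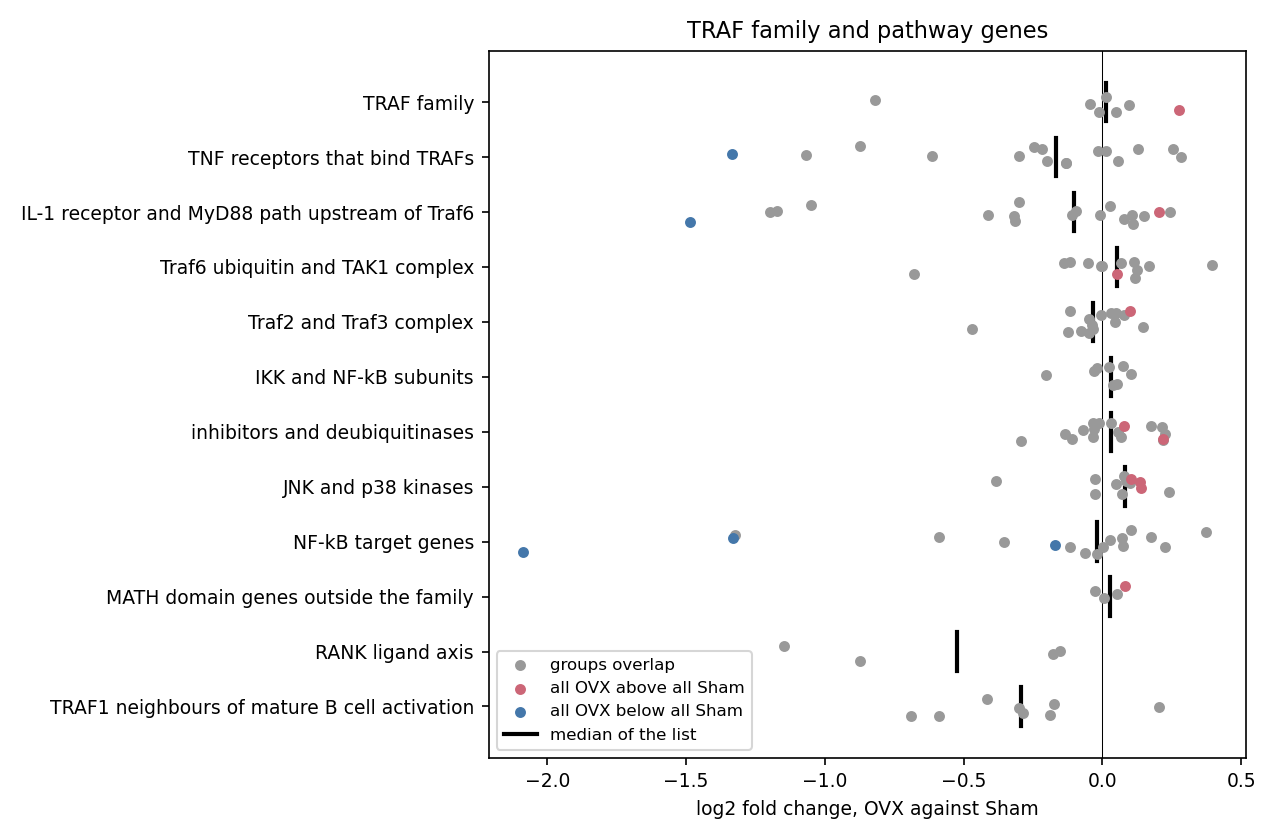
Log2 fold change of OVX against Sham (x axis) for the tested genes of the TRAF family and of each pathway list (rows), 1 point per gene, in red where the OVX libraries were all higher than Sham, in blue where all were lower and in grey where they overlapped, with the list median as a black bar. Most points lie near 0, Traf6 is the red point of the top row at 0.28, and the lowest point is Ccl4 at -2.09.

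Among 9251 genes with a mean of at least 10 CPM, those whose log2 CPM over the 6 libraries were most like Traf6 by Pearson correlation were Epc1 (0.987), Cox6c (0.987), Rab3ip (0.986), Eipr1 (0.986) and Ptger4 (0.983). Epc1 encodes a chromatin protein of the NuA4 complex, Cox6c a subunit of cytochrome c oxidase and Ptger4 a receptor for prostaglandin E. Because Traf6 was chosen for separating the groups, genes this like it had to separate them too, as all 5 did. Their log2 fold changes ran from 0.16 for Epc1 to 0.37 for Ptger4. Most like Traf1 were Dubr (0.995), Itgb7 (0.994), Icosl (0.993), Gigyf1 (0.993) and Bcl2 (0.992), where Itgb7 is a homing integrin chain, Icosl the ligand of ICOS and Bcl2 a survival gene. Their groups overlapped, as for Traf1. With 6 points and 9251 genes compared, values this high describe these libraries only.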

How the data were processed

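RNA-seq of 3 OVX and 3 Sham libraries was analysed, with groups and replicate numbers from the sample titles. The authors deposited raw read counts per Ensembl gene without normalization. The submitters' processing notes name CASAVA, Bowtie 0.12.2 and the build mm10. The counting tool, annotation and strand setting are not given in the sources used here. ChIP-seq data of the series were not analysed here. Symbols matched 54409 of 54532 identifiers. No pair of libraries agreed within sampling noise.

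Versions were R 4.3.3, DESeq2 1.42.0, limma 3.58.1 and edgeR 4.0.16. The 15305 genes past filterByExpr were scaled by TMM and compared with the quasi-likelihood F test of edgeR. P-values were adjusted by Benjamini-Hochberg over all genes, and genes called at an adjusted p under 0.05. A standard error is the log2 fold change divided by the square root of F. The 95% intervals use the fit's moderated degrees of freedom. CPM levels use TMM library sizes, and log2 CPM a prior count of 2. Percentiles of spread rank the SD of log2 CPM within groups over all genes tested and take no account of read number. Reads carry no molecular identifiers, so copies of 1 molecule may be counted as separate reads.

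Named genes are the 7 members, list genes whose groups did not overlap, direct partners, and the 5 genes most like Traf6 and Traf1. The members and lists were chosen with earlier results of these data known. Scripts were tested on simulated data. Alternatives were DESeq2, limma-voom, 4 scalings, 2 filters on low counts, a replicate block, 3 covariates and leaving out each of the 6 libraries. DESeq2 was run on every gene with any read, without filterByExpr.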

Additional observations from a re-analysis of the deposited data

How the results depend on the processing

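No gene was called in any of the 18 alternatives, DESeq2 and limma-voom included, and none of the pathway genes was. At an unadjusted p under 0.05 there were 574 genes, and 1269 when low counts were not filtered, 206 with the replicate block, 185 with the neutrophil share and 198 with the pro-B and pre-B share as covariate, and, with Sham replicate 1, 2 or 3 left out, 2698, 360 or 286, and with OVX replicate 1 or 2 left out, 988 or 233. Replicate numbers were not taken as a pairing, since OVX and Sham deviations from the group means correlated across genes at -0.41, -0.19 and -0.28 for numbers 1, 2 and 3. With the replicate block 0 genes were called.

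The sign of Traf6 is fixed by its choice and is no sign of stability. Its values were from 0.23 to 0.32 without 1 library and 0.20 with scaling on the general B cell markers, which moved the median of all genes from -0.0081 to -0.082. The adjusted p of the members tested was at least 0.288 throughout. Traf5 was -0.011 by library size, -0.0031 with upper-quartile factors, -0.063 with the B cell markers and -0.064 with the neutrophil share, and ran from -0.076 to 0.13 without 1 library. Traf7 was -0.027 with the B cell markers. With the neutrophil share Traf3 was 0.0009 and Traf4 -0.019. With the pro-B and pre-B share, added after the values were seen, Traf1 was 0.67 and Traf3 0.043, and with the mature B share Traf1 was 0.066 and Traf2 0.0020. Without 1 library Traf1 ran from -1.27 to 0.15, Traf2 from -0.047 to 0.031, Traf3 from -0.11 to 0.011 and Traf4 from -0.022 to 0.18. The causes were not tested.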
